A study of Mus musculus with 4 samples.

Results

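The cells described here were 3226 chondrocyte-like cells of mouse bone that carried transcripts of Cytl1, Acan or Col10a1, out of 31279 filtered barcodes in 4 single-cell RNA sequencing libraries. A barcode, the tag that stands for 1 captured cell, was a member when Acan, Cytl1 and Col10a1 together gave at least 5 unique molecular identifiers (UMIs, each standing for 1 counted transcript molecule) and at least 0.1% of its UMIs. In addition, Col9a1, Col9a2, Matn3 and Col11a2 together had to stay under 0.1% of its UMIs, which kept out hyaline chondrocyte-like cells, and S100a8 and S100a9 together under 3%, which kept out neutrophils. The members were thus chosen by the measured UMIs of these 9 genes, whose levels in the members are a description and were not tested. Among filtered barcodes (1000 to 40000 UMIs, at least 200 genes, at most 10% mitochondrial and 0.2% haemoglobin UMIs), 1864 of 7311 were members in Ctrl replicate 1, 1300 of 7495 in Ctrl replicate 2, 2 of 7571 in HLU replicate 1 and 60 of 8902 in HLU replicate 2.

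The libraries came from bone of wild-type C57BL/6J mice, 1 library per mouse, from 2 Ctrl mice and 2 mice under hindlimb unloading (HLU) by tail suspension for 28 days, to ask how the cell types of bone respond to the loss of load. Tibiae and femurs were flushed of marrow, digested with enzymes and captured with the 10x Genomics 3′ kit, version 3.1, and counted UMIs are deposited without normalization. The methods give an age of 8 weeks, the series description speaks of postnatal day 28, and the age of these animals is thus uncertain. The libraries held 57925383, 61296053, 47819046 and 99849070 UMIs over 10000, 10000, 10000 and 10003 barcodes (Ctrl replicates 1 and 2, then HLU replicates 1 and 2).

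Chondrocytes make the matrix of cartilage. In hyaline cartilage this matrix is built of type II, IX and XI collagen and of aggrecan (Acan), a large proteoglycan that holds water; in growth plates the cells enlarge and turn on type X collagen (Col10a1) before bone replaces them, and at the joint surface they secrete lubricin (Prg4). Cytl1 encodes a small secreted protein found in cartilage, Cilp a matrix protein of the articular layers and Smoc2 a calcium-binding matrix protein.

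On mm10 (GENCODE M21), the rule genes lie at chr5:37735519-37739820 on the plus strand (Cytl1), chr7:79053483-79115099 on the plus strand (Acan) and chr10:34389981-34397085 on the plus strand (Col10a1). The further markers lie at chr1:150449412-150466165 on the minus strand (Prg4), chr17:14279506-14404790 on the plus strand (Smoc2) and chr9:65265180-65280605 on the plus strand (Cilp). The 250 bases before the RefSeq start of the 3 genes that chose the members are shown (GRCm38.p6, plus strand, 5′ to 3′, chr5:37735269-37735518, chr7:79052976-79053225 and chr10:34389731-34389980), with capitals for matches to ACAAAG or ACAATG (letters recognised by SOX proteins), TGTGGT (RUNX), TATAAA or TGANTCA (AP-1), searched on both strands.
Cytl1: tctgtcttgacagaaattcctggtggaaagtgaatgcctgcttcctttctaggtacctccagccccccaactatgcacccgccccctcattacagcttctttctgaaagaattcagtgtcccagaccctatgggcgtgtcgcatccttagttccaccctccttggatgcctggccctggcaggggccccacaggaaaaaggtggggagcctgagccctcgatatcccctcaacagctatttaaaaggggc
Acan: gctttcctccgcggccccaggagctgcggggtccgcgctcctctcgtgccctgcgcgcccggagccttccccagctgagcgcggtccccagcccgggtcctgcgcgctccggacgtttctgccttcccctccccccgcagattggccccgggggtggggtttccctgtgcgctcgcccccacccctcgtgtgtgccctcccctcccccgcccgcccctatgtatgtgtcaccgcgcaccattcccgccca
Col10a1: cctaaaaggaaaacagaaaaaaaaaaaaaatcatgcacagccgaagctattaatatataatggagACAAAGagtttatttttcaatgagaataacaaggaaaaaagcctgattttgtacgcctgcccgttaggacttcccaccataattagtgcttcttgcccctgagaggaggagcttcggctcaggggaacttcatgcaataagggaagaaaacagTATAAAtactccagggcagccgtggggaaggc

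The windows of these co-selected genes differed in composition. That of Acan had a GC content of 74.4% with 26 CG pairs, that of Cytl1 54.8% with 4 and that of Col10a1 41.6% with 5, where the median of all 32851 windows was 52.4%. Only the Col10a1 window held any of the searched letters, ACAAAG from 185 to 180 and TATAAA from 32 to 27 bases before the start. Among all windows, ACAAAG or ACAATG occurred in 25.2%, TGTGGT in 14.0%, TATAAA in 12.4% and TGANTCA in 6.75%, so that a match or its lack in 1 window is a description of letters only.

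The name chondrocyte-like was checked against Sox9, which the rule did not use. Sox9, the transcription factor that chondrocytes depend on, gave at least 1 UMI in 78.6% of the members of Ctrl replicate 1 and 85.7% of Ctrl replicate 2, against 8.15% and 10.9% of the neutrophils of the same libraries (barcodes with 3% or more S100a8 and S100a9 UMIs), which served as the background; whether such UMIs came from free RNA, doublets or another source was not tested. The median depth was 9033 and 10236 UMIs in members and 3779 and 3530 in neutrophils. Smoc2, Cilp and Prg4 are markers of these cells chosen with earlier results of these data known. Their shares are thus a description and do not check the name. Smoc2 was found in 82.7% and 80.1% of members against 9.79% and 10.9% of neutrophils, Cilp in 76.6% and 78.8% against 16.1% and 21.8%, and Prg4 in 99.6% and 99.8% against 78.1% and 88.0%. A UMI of Prg4 was thus found in most neutrophils too, but the levels lay apart, since Prg4 made up 19739 and 29829 CPM (counts of a gene in the summed UMIs of a population, scaled to a total of 1000000) in members against 1245 and 2000 in neutrophils. Since UMIs come from transcript ends, CPM values are not divided by gene length.

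Markers of other cell types were low in the members, with exceptions. Of the osteoblast genes, Bglap3 was at 0 in both Ctrl libraries, and no member reached 1% of its UMIs in Bglap, Bglap2 and Bglap3; Spp1, which chondrocytes can also express, made up most of the summed osteoblast list (8886 of 9862 CPM in Ctrl replicate 1 and 11276 of 12200 in Ctrl replicate 2). The neutrophil list summed to 6080 and 10395 CPM in members; since the draw itself set S100a8 and S100a9 apart, the other 8 genes of the list were summed alone and gave 4942 and 8396 CPM in members, 4644 and 7844 of it from Lcn2, against 52178 and 63119 in neutrophils. The monocyte and macrophage list of 10 genes summed to 1002 and 1504 CPM, most of it Cd14, with C1qa at 0 in Ctrl replicate 1. The B and T cell list summed to 40.3 and 129 CPM, the endothelial and mural list to 143 and 125 CPM, mostly Cspg4 with Cdh5 at 0 in Ctrl replicate 1, and the erythroid and megakaryocyte list to 38.3 and 57.7 CPM. Ptprc, carried by nearly all blood cells, gave a UMI in 150 of 1864 members (8.05%) and 233 of 1300 (17.9%), and at least 5 UMIs in 4 and 9 of them. Scrublet marked 93 members of Ctrl replicate 1 (4.99%), 57 of Ctrl replicate 2 (4.38%), 0 of HLU replicate 1 and 12 of the 60 of HLU replicate 2 as possible doublets; they were kept.

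The HLU libraries lay further from the Ctrl libraries than these did from each other, HLU replicate 2 furthest in neutrophils and hyaline cells and HLU replicate 1 in members and stromal cells. Across genes, which are not replicates, log levels of neutrophils correlated with r = 0.978 between the Ctrl libraries, 0.909 and 0.904 between each of them and HLU replicate 1, and 0.809 and 0.799 for HLU replicate 2. For the members the values were 0.980 between the Ctrl libraries, 0.815 and 0.807 for HLU replicate 2, and 0.434 and 0.434 for the 2 members of HLU replicate 1. For stromal cells they were 0.972 between the Ctrl libraries, 0.788 and 0.775 for HLU replicate 2, and 0.721 and 0.720 for the 14 stromal cells of HLU replicate 1. Gm42418, a locus whose reads overlap ribosomal RNA, stood at 36500 CPM in the members of HLU replicate 2 and at 29521 CPM in its neutrophils, against 5798 and 5693 CPM in the Ctrl members. No barcode sequence was a member in more than 1 library. Any pair of libraries shared 23 to 36 of their deposited barcode sequences, counted before filtering.

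Members were frequent in Ctrl and nearly absent in HLU, which was known when these cells were chosen and is described without a test. They made up 25.5% (95% exact binomial interval 24.5 to 26.5) of the filtered barcodes of Ctrl replicate 1 and 17.3% (16.5 to 18.2) of Ctrl replicate 2. In HLU replicate 1 they made up 0.0264% (0.00320 to 0.0954) and in HLU replicate 2 0.674% (0.515 to 0.867). The groups did not overlap, with means of 21.4% ± 5.76 in Ctrl and 0.350% ± 0.458 in HLU (SD, n = 2), a gap of 21.1 percentage points. An exact permutation test of 2 libraries against 2 cannot go below p = 0.333. These intervals cover counting error only.

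Other populations shifted as well. Neutrophils took 31.9% and 45.8% of the filtered barcodes in Ctrl and 72.3% and 67.3% in HLU. Hyaline chondrocyte-like cells (at least 5 UMIs and 0.1% of UMIs in Col9a1, Col9a2, Matn3 and Col11a2) numbered 311 and 475 in Ctrl and 25 and 14 in HLU, stromal cells (at least 2 Pdgfra UMIs) 518 and 409 in Ctrl and 14 and 24 in HLU, and osteoblast-like cells (at least 10 UMIs and 1% of UMIs in Bglap, Bglap2 and Bglap3) 5 and 2 in Ctrl and 2 and 1 in HLU. Among these 4 skeletal populations the members were 69.1% (67.3 to 70.8) in Ctrl replicate 1, 59.5% (57.4 to 61.5) in Ctrl replicate 2, 4.65% (0.568 to 15.8) in HLU replicate 1 and 60.6% (50.3 to 70.3) in HLU replicate 2. On that scale HLU replicate 2 lay between the Ctrl libraries and the groups overlapped, with only HLU replicate 1, at 2 of 43 skeletal barcodes, below them. Fewer such cells in the bone and fewer released by the digest cannot be told apart here.

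**Figure D1:**
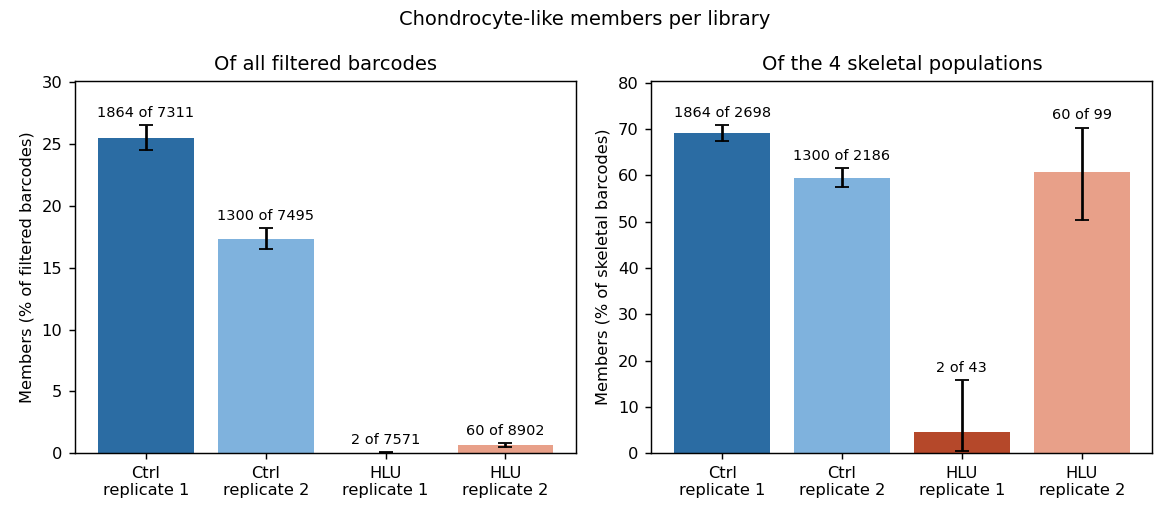
Members in each library as a percentage of all filtered barcodes (left panel, bars with 95% exact binomial intervals) and of the 4 skeletal populations (right panel), with counts above the bars. The Ctrl bars stand at 25.5% and 17.3% of filtered barcodes and the HLU bars at 0.0264% and 0.674%, whereas among skeletal barcodes HLU replicate 2 (60.6%) lies between the Ctrl libraries.

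Few barcodes lay near the threshold. The median member carried 67 UMIs of the 3 rule genes in Ctrl replicate 1, 98 in Ctrl replicate 2, 52.5 in HLU replicate 1 and 84.5 in HLU replicate 2, and these genes took a median of 0.792%, 1.02%, 0.195% and 0.889% of its UMIs. Just inside the rule lay 44, 21, 0 and 0 members with 5 or 6 UMIs, and just outside it 46, 48, 0 and 5 barcodes with 3 or 4 (Ctrl replicates 1 and 2, HLU replicates 1 and 2). By share, 63, 32, 0 and 1 members stood under 0.12%, and 54, 36, 2 and 7 barcodes from 0.08% to 0.1% stayed outside.

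Secreted matrix proteins were among the most abundant transcripts of the Ctrl members. By summed level, the small leucine-rich proteoglycan decorin (Dcn) came first, at 36387 and 40909 CPM in Ctrl replicates 1 and 2. Lubricin (Prg4) stood at 19739 and 29829 CPM (24784 ± 7134, SD, n = 2) and 1500015O10Rik, which encodes a secreted peptide of cartilage (augurin), at 22062 and 19733 (20897 ± 1647). Clusterin (Clu), a secreted chaperone, stood at 12961 and 10768 CPM, the stromelysin Mmp3, which degrades matrix, at 10984 and 16532, and chondroadherin (Chad), a collagen-binding leucine-rich protein, at 10088 and 7664. The Ctrl libraries gave the same genes at the top, although Prg4, Mmp3 and Chil1, which encodes a secreted glycoprotein of cartilage and inflamed tissue (6475 and 12793), were higher in Ctrl replicate 2.

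Of the genes that chose the members, Cytl1 was among the most abundant transcripts and Col10a1 and Acan stood lower. Cytl1 stood at 9242 and 10490 CPM (9866 ± 882), Col10a1 at 2868 and 3519 (3193 ± 460) and Acan at 1968 and 2833 (2400 ± 611). Cilp reached 1923 and 2468 CPM (2195 ± 386) and Smoc2 1000 and 1050 (1025 ± 35.5). Type II collagen (Col2a1) was at 1826 and 2402 CPM, Comp, which crosslinks collagen in cartilage and tendon, at 5705 and 4857, and Sox9 at 669 and 757.

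Compared with all other filtered barcodes of the same library, genes among the 15 most enriched in the members were, by the lower of the ratios in the 2 Ctrl libraries, Cytl1 (15.2-fold), Smoc2 (10.5-fold), Serpina1e (10.1-fold) and 1500015O10Rik (9.04-fold). Others were Col10a1 (8.51-fold), Fxyd3 (8.45-fold), the collagen prolyl hydroxylase P3h2 (8.01-fold), Acan (7.94-fold), the protease Bace2 (7.39-fold) and Wif1 (7.38-fold), a secreted inhibitor of WNT ligands. Gm15271 (7.38-fold), Chil1 (7.24-fold), the retinol carrier Rbp4 (7.04-fold) and Hrct1 (7.03-fold) were also among the 15. These ratios describe the cells that the rule drew and were not tested; Serpina1e belongs to a family of near-identical genes whose reads may have been split between copies, and it differed between the libraries (123 and 31.0 CPM).

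**Figure D2:**
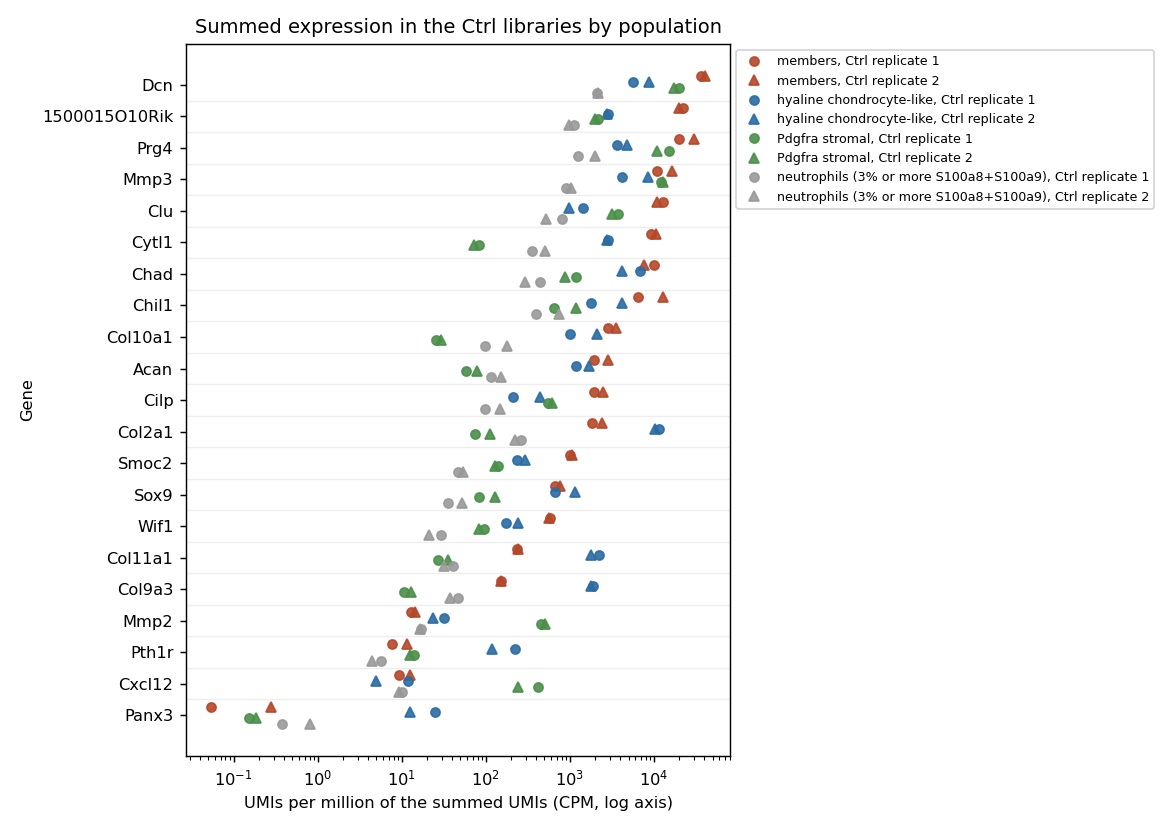
Summed CPM (log axis) of 21 genes in the 2 Ctrl libraries for members, hyaline chondrocyte-like cells, Pdgfra stromal cells and neutrophils. Prg4, Clu and 1500015O10Rik lie to the right in members, Col2a1, Col11a1, Col9a3, Pth1r and Panx3 in hyaline cells, and Mmp2 and Cxcl12 in stromal cells.

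Members were then compared with the hyaline chondrocyte-like cells of the same 2 Ctrl libraries, on UMIs summed per library and population, with edgeR's quasi-likelihood test and the library as a block (12110 genes; positive log2 fold changes are higher in members, ± SE). The populations were drawn on cartilage collagens in the same cells, so differences in cartilage genes are not independent of the draw, and the counts of cartilage lists describe these populations as drawn. Of all genes tested, 21.3% passed an adjusted p of 0.05, with 8.76% higher and 12.5% lower in members. Without TMM scaling factors the median of all genes moved from 0.01 to -0.11 and the split from 1061 higher and 1519 lower to 881 and 1957.

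Of the 16 tested genes of the articular superficial zone, 12 were higher and 1 lower, and the median log2 difference was 1.74. Clu stood at 12961 and 10768 CPM in members against 1422 and 971 in hyaline cells (3.45 ± 0.32, edgeR adjusted p = 1.3e-05). For 1500015O10Rik the levels were 22062 and 19733 against 2869 and 2746 (3.01 ± 0.32, edgeR adjusted p = 3.49e-05), and for Cilp 1923 and 2468 against 213 and 446 (2.91 ± 0.32, edgeR adjusted p = 4.8e-05). Each of these genes was higher in members in both libraries. Abi3bp, a matrix protein, was at 221 and 194 against 41.4 and 24.1 CPM (2.83 ± 0.24, edgeR adjusted p = 8.53e-06). Prg4 was at 19739 and 29829 against 3690 and 4796 (2.66 ± 0.34, edgeR adjusted p = 0.000151). Smoc2 was at 1000 and 1050 against 238 and 295 (2.07 ± 0.26, edgeR adjusted p = 0.000137). Fbln7, a fibulin, was the member of the list that was lower, at 28.9 and 28.1 against 108 and 87.2 CPM (-1.65 ± 0.20, edgeR adjusted p = 0.000151).

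The hyaline matrix genes ran the other way, as the draw would favour. Of 13 tested, 0 were higher and 9 lower (median -2.27). The proteoglycan Epyc was at 1.45 and 6.27 CPM in members against 67.7 and 144 (-4.78 ± 0.32, edgeR adjusted p = 3.69e-06). Type IX collagen Col9a3, left out of the rule, was at 151 and 150 against 1909 and 1794 (-3.50 ± 0.27, edgeR adjusted p = 6.42e-06). Chondromodulin (Cnmd), which holds back vessels, was at 95.1 and 118 against 1261 and 1007 (-3.27 ± 0.30, edgeR adjusted p = 1.87e-05). Col2a1 was lower but far from absent, at 1826 and 2402 against 11629 and 10187 CPM (-2.27 ± 0.30, edgeR adjusted p = 0.000179). Not all cartilage genes were lower: Chad was at 10088 and 7664 against 6771 and 4190 (0.85 ± 0.40, edgeR adjusted p = 0.157). Comp was at 5705 and 4857 against 5037 and 3683 (0.41 ± 0.27, edgeR adjusted p = 0.313). Neither passed the threshold.

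Col10a1 marks hypertrophic chondrocytes and helped to choose the members, but most other hypertrophic genes were lower in members than in hyaline cells. Of 13 tested, 1 was higher (Spp1) and 8 were lower (median -1.66). The hemichannel Panx3 was at 0.0536 and 0.282 CPM in members against 25 and 12.7 (-6.63 ± 0.53, edgeR adjusted p = 9.14e-06; -7.56 in Ctrl replicate 1 alone and -5.11 in Ctrl replicate 2 alone). The parathyroid hormone receptor Pth1r was at 7.61 and 11.7 against 221 and 118 (-3.96 ± 0.32, edgeR adjusted p = 5.36e-06; -4.67 and -3.26). The transcription factor Runx3 was at 3.80 and 8.03 against 85.5 and 87.3 (-3.81 ± 0.25, edgeR adjusted p = 3.69e-06). Each of these 3 genes was lower in members in both libraries. The signal Ihh was at 0.107 and 1.34 against 5.62 and 10.2 CPM (-3.57 ± 0.57, edgeR adjusted p = 0.00129; -4.88 and -2.80). Spp1, osteopontin, was at 8886 and 11276 against 3188 and 5724 (1.31 ± 0.33, edgeR adjusted p = 0.0124). Among the 185 genes with at least 10 counts in every sum this call ended (edgeR adjusted p = 0.0617), at a log2 difference of 1.60.

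Transcription factors of the skeleton were divided, with 10 higher and 7 lower of 27 (median 0.67). Sox9, the most abundant, was at 669 and 757 against 673 and 1160 CPM (-0.19 ± 0.25, edgeR adjusted p = 0.651). The osteogenic factors Runx2 (7.18 and 12.9 against 59.99 and 58.2; -2.47 ± 0.22, edgeR adjusted p = 1.04e-05) and Sp7 (3.37 and 3.24 against 29.1 and 38.6; -3.22 ± 0.29, edgeR adjusted p = 1.04e-05) were lower with Runx3. Higher in members was the homeobox gene Barx1, at 55.6 and 33.1 against 8.17 and 10.1 (2.30 ± 0.26, edgeR adjusted p = 6.17e-05; 2.93 in Ctrl replicate 1 alone). Nfib, of the nuclear factor I family, was at 81.6 and 60.3 against 22.2 and 14.5 (2.09 ± 0.25, edgeR adjusted p = 7.29e-05).

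Signals, proteases and the enzymes that build proteoglycan chains were mixed, with genes higher, lower and not past the threshold in each list. Of 34 signal genes 17 were higher and 11 lower (median 0.73). Wif1 was at 583 and 566 against 172 and 243 CPM (1.59 ± 0.27, edgeR adjusted p = 0.00112). Dkk3, a secreted protein of the dickkopf family, was at 7.55 and 4.09 against 1.02 and 0.296 (3.36 ± 0.50, edgeR adjusted p = 0.00056), while Chrdl1, which binds BMP ligands, was at 2.46 and 1.62 against 40.6 and 22.6 (-3.80 ± 0.26, edgeR adjusted p = 3.69e-06). Of 15 proteases and inhibitors 6 were higher and 3 lower (median 0.32), among the higher ones the serine protease inhibitor Serpine2 (5142 and 5997 against 849 and 1201; 2.55 ± 0.40, edgeR adjusted p = 0.000576). Timp3, which blocks metalloproteinases, was at 1247 and 1140 against 637 and 656 (1.01 ± 0.24, edgeR adjusted p = 0.0105). Mmp3 (10984 and 16532 against 4205 and 8475; 1.26 ± 0.34, edgeR adjusted p = 0.0196) did not pass without the library block (adjusted p = 0.0722). Of 16 sulphation and chain synthesis genes 3 were higher and 4 lower (median -0.24), among them the sulphatase Sulf2 (16.4 and 17.9 against 2.30 and 2.96; 2.77 ± 0.28, edgeR adjusted p = 4.36e-05) and Papss2, which makes the sulphate donor (45.6 and 40.6 against 223 and 151; -1.97 ± 0.20, edgeR adjusted p = 5.01e-05).

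Cell division genes were low in members. Of 12 cell division genes 0 were higher and 11 lower than in hyaline cells (median -3.70); Top2a was at 1.29 and 4.44 against 94.5 and 75.3 CPM (-4.85 ± 0.38, edgeR adjusted p = 4.64e-06; -5.95 in Ctrl replicate 1 alone and -4.00 in Ctrl replicate 2 alone). Of 11 small leucine-rich proteoglycans 4 were higher and 2 lower (median 0.73). Dcn was at 36387 and 40909 against 5621 and 8710 (2.51 ± 0.53, edgeR adjusted p = 0.00489). Among the 185 genes with at least 10 counts in every sum it lost its call (edgeR adjusted p = 0.111), at a log2 difference of 2.81. Bgn was at 1207 and 1025 against 3097 and 2592 (-1.22 ± 0.26, edgeR adjusted p = 0.00535). Of 13 stromal genes 6 were higher and 0 lower (median 1.40), with the actin regulator Gsn at 4179 and 3533 against 1038 and 918 (2.10 ± 0.26, edgeR adjusted p = 0.00012). The osteoblast list gave 1 higher and 6 lower of 12 (median -0.88), the tendon and ligament list 2 and 1 of 9 (1.20), hypoxia targets 1 and 1 of 14 (-0.28) and dissociation genes 1 and 3 of 16 (-0.35).

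Of the blood cell lists, 4 of 5 B and T cell genes were higher in members and 1 lower. The other lists gave 1 of 8 neutrophil genes, 1 of 7 monocyte and macrophage genes and 1 of 2 erythroid and megakaryocyte genes as higher and 0 as lower, beside 8.76% of all genes, so that nothing is read from these counts. Of 4 endothelial and mural genes 1 was higher and 1 lower. Lcn2, an iron-siderophore binding protein, stood at 4644 and 7844 CPM in members against 449 and 1526 in hyaline cells (2.94 ± 0.38, edgeR adjusted p = 0.000147; 3.55 in Ctrl replicate 1 alone) and at 6025 and 8176 in neutrophils, while S100a8, the neutrophil gene limited by the rule, stood at 490 and 874 in members. The part of other cells in these values was not tested.

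The largest differences by the naming rule involved mostly low genes. Among falls, the carbonic anhydrase Car12 was at 0.0536 and 0.211 against 44.2 and 37.0 CPM (-8.06 ± 0.46, edgeR adjusted p = 1.33e-06; -6.97 in Ctrl replicate 2 alone). Syt8 was at 0.482 and 1.20 against 136 and 136 (-7.25 ± 0.36, edgeR adjusted p = 9.56e-07). The citrate transporter Slc13a5 was at 0.161 and 0.352 against 27.6 and 49.4 (-7.04 ± 0.33, edgeR adjusted p = 9.25e-07). Among rises, 2610204G07Rik, Apol9a, Pla2g2e and Frk were at 0 in the hyaline sums and at least 8.66-, 3.57-, 3.57- and 3.36-fold higher in members against a floor of 3 counts over the group; with DESeq2 the adjusted p was 0.127 for 2610204G07Rik and 0.061 for Frk. Better measured was Etos1, at 25.4 and 19.4 against 0.766 and 1.33 (4.42 ± 0.38, edgeR adjusted p = 1.3e-05; 5.10 in Ctrl replicate 1 alone). Dmkn, dermokine, was at 94.6 and 80.1 against 2.55 and 7.69 (4.10 ± 0.36, edgeR adjusted p = 1.33e-05; 5.35 and 3.43).

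Against Pdgfra stromal cells of the same libraries, 19.9% of the 12110 genes passed, 10.2% higher and 9.64% lower in members; without TMM factors the median of all genes was -0.33 and the split moved from 1238 higher and 1168 lower to 849 and 2710. Here the cartilage genes were the higher ones, which again follows the draw: 10 higher and 1 lower of 13 (median 3.94). Col2a1 was at 1826 and 2402 CPM in members against 75.5 and 112 (4.83 ± 0.34, edgeR adjusted p = 1.54e-06). The link protein Hapln1 was at 590 and 742 against 41.1 and 53.5 (4.14 ± 0.28, edgeR adjusted p = 1.84e-06). Chad was at 10088 and 7664 against 1174 and 882 (3.44 ± 0.44, edgeR adjusted p = 0.000112).

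The superficial zone list separated in this comparison, with 8 higher and 5 lower of 16 (median 0.70). Higher in members were 1500015O10Rik (2172 and 2001 CPM in stromal cells; 3.65 ± 0.33, edgeR adjusted p = 6.55e-06), Smoc2 (139 and 129; 3.26 ± 0.28, edgeR adjusted p = 4.86e-06), Cilp (546 and 616; 2.23 ± 0.31, edgeR adjusted p = 0.000224) and Clu (3710 and 3205; 2.10 ± 0.30, edgeR adjusted p = 0.000295). Prg4 was abundant in both populations, at 15138 and 10849 in stromal cells, and its difference (1.23 ± 0.33, edgeR adjusted p = 0.0192) did not pass without TMM factors (adjusted p = 0.0511). Lower in members was tenascin C (Tnc), at 3.0 and 3.66 against 53.2 and 50.6 CPM (-3.67 ± 0.44, edgeR adjusted p = 7.62e-05).

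The stromal genes themselves were lower in members, 10 of 13 with 1 higher (median -3.06), as the draw of the stromal cells on Pdgfra would favour. The chemokine Cxcl12 was at 9.37 and 12.7 against 424 and 241 CPM (-4.51 ± 0.33, edgeR adjusted p = 1.8e-06; -5.18 in Ctrl replicate 1 alone and -3.92 in Ctrl replicate 2 alone). The surface protein Ly6a was at 11.7 and 13.5 against 269 and 183 (-3.80 ± 0.27, edgeR adjusted p = 2.43e-06). Type III collagen (Col3a1) was at 69.8 and 95 against 672 and 1102 (-3.06 ± 0.43, edgeR adjusted p = 0.000229). Members and stromal cells could overlap by the rule, since 200 and 189 Ctrl members carried at least 2 Pdgfra UMIs and counted as members; without them 2666 genes passed, 2369 of them shared with the 2406 in direction.

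Transcription factors gave 13 higher and 4 lower of 27 (median 0.74) and signals 12 and 7 of 34 (0.46). Sox9 was at 669 and 757 against 83.4 and 130 CPM (3.11 ± 0.27, edgeR adjusted p = 5.76e-06). Foxa3, a forkhead factor of hypertrophic chondrocytes, was at 23.6 and 20.2 against 1.36 and 1.28 (4.35 ± 0.35, edgeR adjusted p = 5.41e-06). The secreted WNT antagonist Frzb was at 49.8 and 35.7 against 2.12 and 1.47 (4.87 ± 0.30, edgeR adjusted p = 1.25e-06). The growth factor receptor Fgfr3 was at 28.1 and 41.2 against 3.33 and 2.20 (3.91 ± 0.30, edgeR adjusted p = 2.14e-06). All 4 were higher in both libraries. The gelatinase Mmp2 was at 13.0 and 14.5 against 451 and 510 (-4.80 ± 0.25, edgeR adjusted p = 7.41e-07). Its activator Mmp14 was at 4.39 and 7.19 against 91.4 and 83.8 (-3.64 ± 0.25, edgeR adjusted p = 1.38e-06). Timp3 was at 1247 and 1140 against 227 and 257 (2.64 ± 0.26, edgeR adjusted p = 1.27e-05), in a list with 4 higher and 3 lower of 15 (median 0.38). Mmp3 was not past the threshold (12007 and 12843 CPM in stromal cells; 0.43 ± 0.34, edgeR adjusted p = 0.431).

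Sulphation and proteoglycan synthesis genes were higher in 9 of 16 and lower in 0 (median 0.69), among them the hyaluronan synthase Has2 (29.5 and 24.3 against 3.18 and 3.12 CPM; 3.41 ± 0.28, edgeR adjusted p = 6.45e-06). Hypoxia targets were higher in 5 of 14 and lower in 0 (median 0.73), and Egln3, Slc2a1 and Vegfa among them lost the call without the block (adjusted p = 0.233, 0.165 and 0.393). Vegfa lost it also with DESeq2 (adjusted p = 0.103), without TMM factors (0.107) and without the osteoblast-like population (0.0657). Lcn2 was higher here also, against 292 and 530 CPM in stromal cells (4.27 ± 0.40, edgeR adjusted p = 9.7e-06). Fxyd3 was among the largest rises, at 221 and 460 against 2.88 and 8.25 (6.33 ± 0.29, edgeR adjusted p = 7.41e-07), and Igfbp2, which binds insulin-like growth factors, among the largest falls, at 0.161 and 0.211 against 72.8 and 23.1 (-7.58 ± 0.54, edgeR adjusted p = 1.74e-06; -6.04 in Ctrl replicate 2 alone). The other lists gave 4 higher and 2 lower of 13 hypertrophic genes (median 0.74), 1 and 2 of 12 osteoblast genes, 0 and 3 of 9 tendon and ligament genes, 3 and 3 of 11 small leucine-rich proteoglycans, 4 and 0 of 16 dissociation genes and 2 and 2 of 12 cell division genes. Of the blood and vessel lists, 1 of 8 neutrophil, 2 of 7 monocyte and macrophage, 4 of 5 B and T cell, 0 of 2 erythroid and megakaryocyte and 1 of 4 endothelial and mural genes were higher (2 of the last lower).

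**Figure D3:**
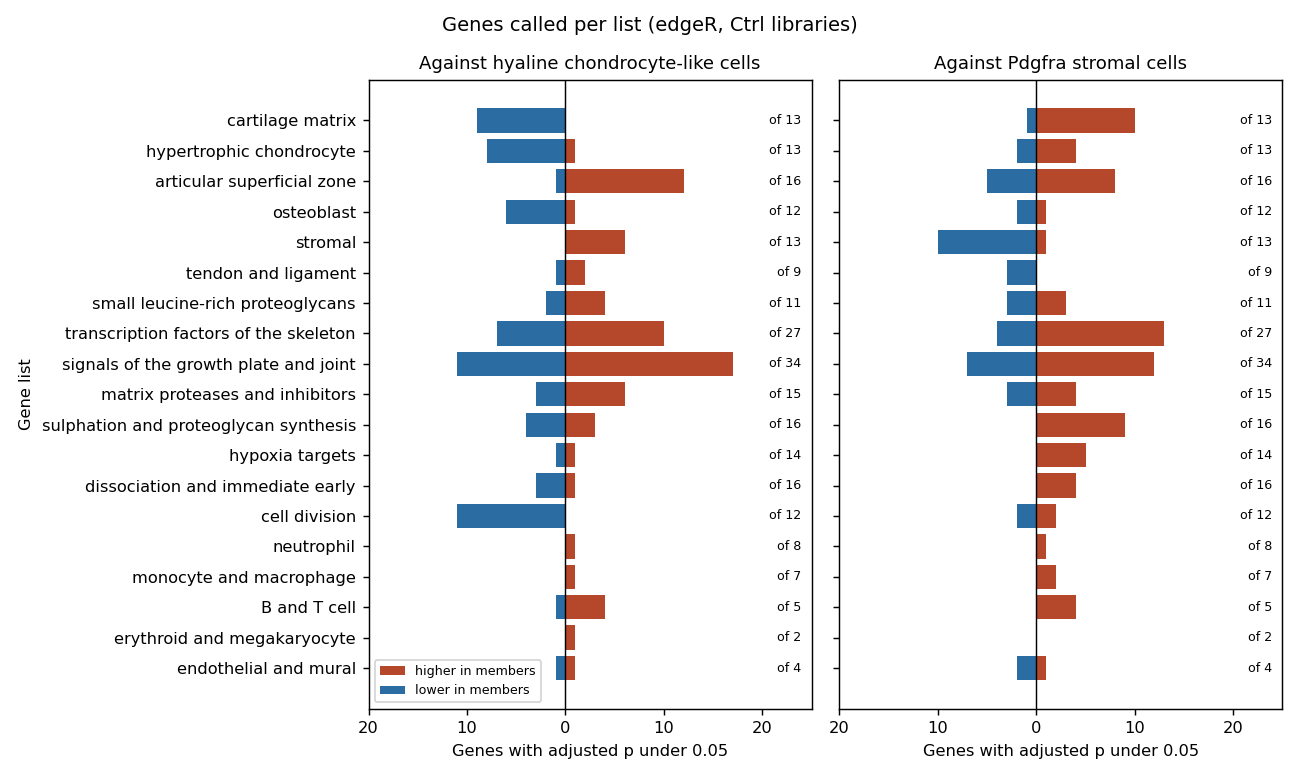
Number of genes per list that passed edgeR's test (adjusted p under 0.05, Ctrl libraries) as higher (bars to the right) or lower (bars to the left) in members, against hyaline chondrocyte-like cells (left panel) and Pdgfra stromal cells (right panel), with the number tested at the right edge. The superficial zone list shows 12 higher and 1 lower against hyaline cells, and the cartilage matrix list 0 and 9 there but 10 and 1 against stromal cells.

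The osteoblast-like population held 7 Ctrl barcodes, and on sums simulated at that size the test recovered 8 of 100 genes changed by 2 on the log2 scale, with 30 false calls among 11718 genes. In the data 2.54% of genes passed, 2.02% higher and 0.512% lower in members (245 and 62 genes; 89 and 147 without TMM factors), and no gene is named from it.

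Among themselves, members differed in which rule gene led. Cytl1 had the most UMIs of the 3 in 1187 members of Ctrl replicate 1 (63.7%) and 868 of Ctrl replicate 2 (66.8%), Acan in 441 (23.7%) and 280 (21.5%), and Col10a1 in 222 (11.9%) and 145 (11.2%), with ties in 14 and 7. The proportions were thus alike in both Ctrl libraries. Median depths of the 3 subsets were 9136, 8414 and 10038 UMIs in Ctrl replicate 1 and 10034.5, 10603 and 10697 in Ctrl replicate 2. The subsets were compared with the same test on 10317 genes, with the library as a block. They were drawn on UMIs of the rule genes in the same cells. Differences in genes that vary with a rule gene are thus not independent of the draw. Across members, Sox9 ran with Acan, Chad with Col10a1 and Cilp with Cytl1 in both libraries.

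Col10a1-led members differed from Acan-led ones in few genes: 0.979% passed, 0.3% higher and 0.678% lower (31 and 70 genes). Chad was higher, at 12056 and 9675 CPM against 7920 and 5390 in Acan-led members (0.78 ± 0.11, edgeR adjusted p = 0.00864), as was Scrg1, a small cartilage protein (199 and 164 against 132 and 77.3; 0.88 ± 0.15, edgeR adjusted p = 0.0346). Mmp3 was higher too, at 12866 and 24495 against 7666 and 14909 (0.79 ± 0.13, edgeR adjusted p = 0.0244). Each library gave the same direction for these 3 genes. Lower were Abi3bp (105 and 64.5 against 257 and 210; -1.42 ± 0.14, edgeR adjusted p = 0.00211), fibromodulin (Fmod; 110 and 162 against 387 and 790; -2.01 ± 0.22, edgeR adjusted p = 0.00298) and the acute phase protein Saa2 (1.24 and 1.25 against 129 and 53.1; -6.24 ± 0.29, edgeR adjusted p = 3.98e-05; -5.15 in Ctrl replicate 2 alone). Efemp1, a fibulin, was at 0 in both Col10a1-led sums and at least 11.6-fold lower there.

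The largest rises in Col10a1-led members were the antigen presentation genes H2-Aa and Cd74, Ly6d, a gene of B cell precursors, and the serine protease inhibitors Serpina1a and Serpina1e. H2-Aa was at 5.79 and 15.7 CPM against 0.239 and 1.57 (3.76 ± 0.54, edgeR adjusted p = 0.0104) and Ly6d at 7.45 and 13.2 against 0.956 and 0.942 (3.40 ± 0.44, edgeR adjusted p = 0.00663). Without the barcodes marked as doublets the differences were 2.92 and 2.93, and both lost the call (edgeR adjusted p = 0.205 and 0.170). Cd74 was at 12.8 and 62.7 against 1.67 and 7.85 (3.16 ± 0.42, edgeR adjusted p = 0.00699), and 100 Cd74 UMIs of Ctrl replicate 2 came from 11 of 145 Col10a1-led members. Few cells held several UMIs of these 3 genes. At least 5 UMIs of H2-Aa were found in 1 of 222 and 1 of 145 Col10a1-led members (Ctrl replicates 1 and 2). For Ly6d these counts were 1 and 1, and for Cd74 1 and 2. Serpina1a was at 294 and 378 against 84.8 and 56.9 (2.35 ± 0.30, edgeR adjusted p = 0.00609; 1.76 in Ctrl replicate 1 alone and 2.88 in Ctrl replicate 2 alone). Serpina1e, its near-identical relative, gave 247 and 73.9 against 63.8 and 9.11 (2.29 ± 0.22, edgeR adjusted p = 0.00211; 3.15 in Ctrl replicate 2 alone).

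No hypertrophic gene passed the test between Col10a1-led and Acan-led members: of 11 tested, 0 were higher and 0 lower by edgeR (median 0.04). On sums simulated for this comparison the test recovered 46 of 100 genes changed by 1 on the log2 scale, so differences of that size could be missed. Spp1 stood at 12764 and 16327 CPM against 12735 and 17791. Bone sialoprotein (Ibsp) was at 705 and 783 against 270 and 418 (1.17 ± 0.32, edgeR adjusted p = 0.179). The phosphatase Alpl was at 26.5 and 49.5 against 9.08 and 27.3 (1.16 ± 0.41, edgeR adjusted p = 0.340) and Sp7 at 9.52 and 9.40 against 3.11 and 6.91 (1.02 ± 0.49, edgeR adjusted p = 0.508). By list, cartilage matrix genes gave 2 higher and 0 lower of 12, superficial zone genes 0 and 2 of 16, tendon and ligament genes 0 and 3 of 8, and proteases and inhibitors 3 and 2 of 15. Without the library block 16 genes passed instead of 101 (1 higher and 15 lower). Saa2 was among them; Chad (adjusted p = 0.731), Scrg1 (0.605), Mmp3 (0.892), Abi3bp (0.0797), Fmod (0.0863), Efemp1 (0.0834) and the 5 largest rises (0.0797 for Serpina1a to 0.833 for Cd74) were not.

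Against the same Acan-led members, 2.99% of genes passed in Cytl1-led members, 0.737% higher and 2.25% lower (76 and 232 genes). Hypoxia targets were lower in 7 of 13 and higher in 0 (median -0.72). The vascular growth factor Vegfa was at 152 and 183 CPM in Cytl1-led members against 288 and 384 in Acan-led ones (-1.03 ± 0.10, edgeR adjusted p = 0.00542). The glucose transporter Slc2a1 was at 325 and 366 against 643 and 751 (-1.05 ± 0.10, edgeR adjusted p = 0.00542). The oxidoreductase Ero1l was at 307 and 338 against 703 and 648 (-1.10 ± 0.11, edgeR adjusted p = 0.00542). In both libraries each of these 3 genes was lower in Cytl1-led than in Acan-led members. Hypertrophic genes were lower in 4 of 11 and higher in 0 (median -1.03): Spp1 was at 6740 and 8204 against 12735 and 17791 (-1.05 ± 0.09, edgeR adjusted p = 0.00462). The collagenase Mmp13 was at 161 and 652 against 842 and 1732 (-2.03 ± 0.40, edgeR adjusted p = 0.0339; -1.40 in Ctrl replicate 2 alone; DESeq2 adjusted p = 0.104).

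Higher in Cytl1-led members was Cilp, at 2231 and 3006 against 1491 and 1475 CPM (0.77 ± 0.13, edgeR adjusted p = 0.0184). Rbp4 was at 1521 and 1741 against 928 and 809 (0.87 ± 0.13, edgeR adjusted p = 0.0139). Sox9 was lower, at 531 and 676 against 979 and 911 (-0.70 ± 0.13, edgeR adjusted p = 0.0305). Superficial zone genes gave 1 higher and 1 lower of 16, and small leucine-rich proteoglycans 0 and 4 of 10. Without the library block 0 genes passed by edgeR (938 at an unadjusted p under 0.05), and with DESeq2 and the block 123 passed, so these calls rest on the pairing of subsets within a mouse; the unblocked edgeR adjusted p of the genes named here ran from 0.0981 (Ero1l) to 0.649 (Mmp13).

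Of the 5 largest rises in Cytl1-led members, 4 were genes of blood cells (Ly6d, Elane, Cd79a and Ctsg) and the other was 4933400C23Rik. Ly6d was at 11.1 and 15.9 CPM against 0.956 and 0.942 (3.73 ± 0.36, edgeR adjusted p = 0.00542). The neutrophil elastase Elane was at 26.2 and 99.7 against 5.26 and 5.97 (3.25 ± 0.53, edgeR adjusted p = 0.0171; 2.21 in Ctrl replicate 1 alone and 4.05 in Ctrl replicate 2 alone). The B cell receptor subunit Cd79a was at 5.43 and 19.8 against 0.956 and 1.57 (3.19 ± 0.39, edgeR adjusted p = 0.00761; 2.33 in Ctrl replicate 1 alone), and the granule protease Ctsg at 5.27 and 25.1 against 1.67 and 1.26 (3.07 ± 0.61, edgeR adjusted p = 0.0350; 1.52 and 4.22). For 4933400C23Rik the values were 7.02 and 6.53 against 0.956 and 0 (3.57 ± 0.60, edgeR adjusted p = 0.0189; 2.69 in Ctrl replicate 1 alone), on 84 and 61 UMIs against 4 and 0. Few cells carried a UMI of Elane or Ly6d. In Ctrl replicate 2, 932 Elane UMIs came from 74 of 868 Cytl1-led members, 5 of which had at least 5, and 149 Ly6d UMIs from 29, 6 of which had at least 5.

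**Figure D4:**
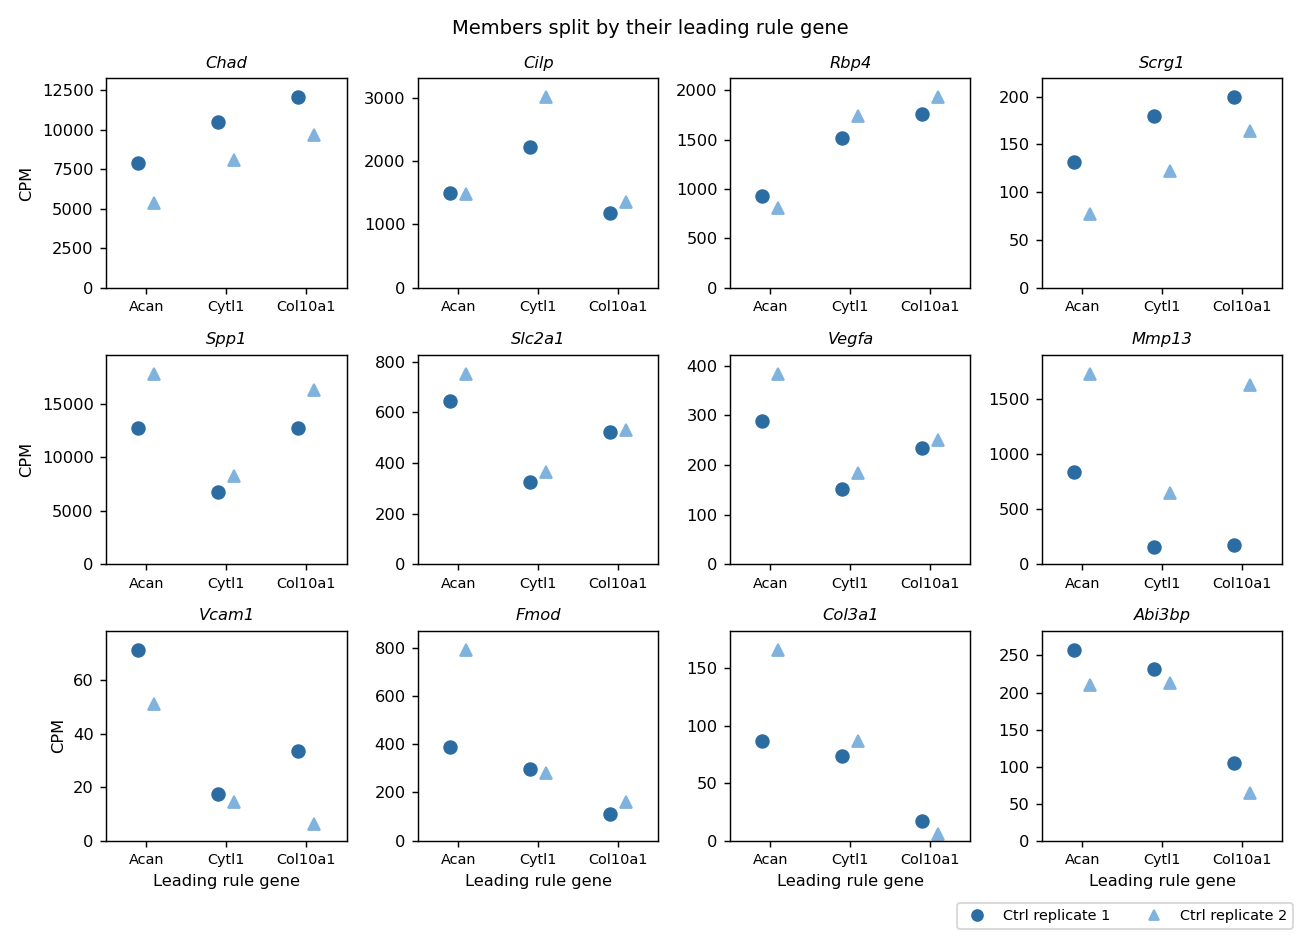
CPM of 12 genes (axes from 0) in members split by the rule gene with the most UMIs, circles for Ctrl replicate 1 and triangles for Ctrl replicate 2. Slc2a1, Vegfa and Spp1 are lowest in Cytl1-led members in both libraries, Cilp is highest there, and Abi3bp, Fmod and Col3a1 are lowest in Col10a1-led members.

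From cell to cell the leading genes varied widely within a library. Prg4 took a median of 0.883% of a member's UMIs in Ctrl replicate 1 and 1.58% in Ctrl replicate 2, but 5% of the members lay under 0.0519% and 0.0464% and 5% above 8.61% and 11.1%. Mmp3 was more uneven, with medians of 0.0749% and 0.112%, 75th percentiles of 0.855% and 1.70% and 95th percentiles of 5.24% and 7.36%. Col10a1 was likewise, with medians of 0.0100% and 0.0174%, 75th percentiles of 0.162% and 0.250% and 95th percentiles of 1.51% and 1.98%. A UMI of Mmp3 was found in 71.2% and 85.9% of the neutrophils of these libraries, and of Col10a1 in 17.6% and 26.6%. Low shares of these genes in single members are thus not read as expression. For Dcn the medians were 3.09% and 3.72% and the 5th percentiles 0.227% and 0.335%. No background share is given for Dcn, so its presence in single members is not read from these values.

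Across members, genes were related in pairs that both Ctrl libraries showed, given as Spearman's rho of the share of UMIs over 1864 and 1300 cells of 1 mouse each, without a test because cells share their library and depth. Lcn2 and Chil1 rose together (0.53 in Ctrl replicate 1 and 0.50 in Ctrl replicate 2), as did 1500015O10Rik and Chad (0.39 and 0.45), Cilp and Clu (0.39 and 0.44) and Acan and Sox9 (0.35 and 0.38). Col10a1 ran with Chad (0.30 and 0.28) and against Clu (-0.28 and -0.21), and Cilp against Spp1 (-0.26 and -0.29). Relations among the rule genes themselves are not given, since the members were chosen on the sum of these genes.

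The HLU libraries held 62 members, 2 of them in HLU replicate 1, and their levels are described without a test across libraries. The 2 members of HLU replicate 1 had Cytl1, Prg4 and Cilp at 0 and Acan at 639, Col10a1 at 1394, Mmp13 at 10768 and Spp1 at 89279 CPM, a profile apart from that of the Ctrl members, in which Spp1 was at 8886 and 11276. In the 60 members of HLU replicate 2, Cytl1 led in 45, Acan in 9 and Col10a1 in 4. Cytl1 was at 9306 CPM (95% Poisson interval 9077 to 9538, counting error only), near the Ctrl values of 9242 and 10490, and Prg4 at 17413 (17100 to 17730), below 19739 and 29829. Acan was at 1590 (1496 to 1688), Col10a1 at 1494 (1403 to 1589), Cilp at 1352 (1266 to 1443) and Smoc2 at 460 (410 to 514), each below both Ctrl libraries. Col10a1 gave a UMI in 19 of these 60 members (31.7%), against 56.3% and 65.4% in Ctrl, and in 0.251% of the neutrophils of HLU replicate 2 against 17.6% and 26.6% of those of Ctrl. The background in neutrophils thus differed between the libraries, its source was not tested, and no difference is read from these shares of members. Median depths were 10591, 9033 and 10236 UMIs in the members and 6227, 3779 and 3530 in the neutrophils.

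Of 728 genes at 200 CPM or more in HLU replicate 2 or in both Ctrl libraries, 12.0% lay over 2-fold above both Ctrl libraries beyond the counting interval and 9.2% over 2-fold below both. Of the 67 listed genes at that level, 6 were higher and 17 lower. Many genes met the level only in the group where they were high, so these counts are a description: 70 of the 87 higher genes (4 of the 6 listed) stood under 200 CPM in both Ctrl libraries, and 36 of the 67 lower genes (11 of the 17 listed) under 200 CPM in HLU replicate 2. The lower ones included Dcn at 12542 CPM (12277 to 12812), 1500015O10Rik at 3999 (3850 to 4152), Clu at 3389 (3251 to 3530) and Comp at 1058 (982 to 1139), against Ctrl values of at least 36387, 19733, 10768 and 4857. These 4 genes were also low in the hyaline cells of HLU replicate 2 (2225, 305, 81.6 and 1088 CPM) compared with those of Ctrl, so that the shift was not limited to members; with a single library, the library and the treatment cannot be told apart. Mmp3 was at 28026 CPM (27629 to 28428) against 10984 and 16532, under 2-fold from the nearer Ctrl library, and its median share per member was 1.66% against 0.0749% and 0.112%. A UMI of Mmp3 was found in 3.62% of the neutrophils of HLU replicate 2, against 71.2% and 85.9% of those of Ctrl. The background thus differed between the libraries, and no difference is read from these medians.

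**Figure D5:**
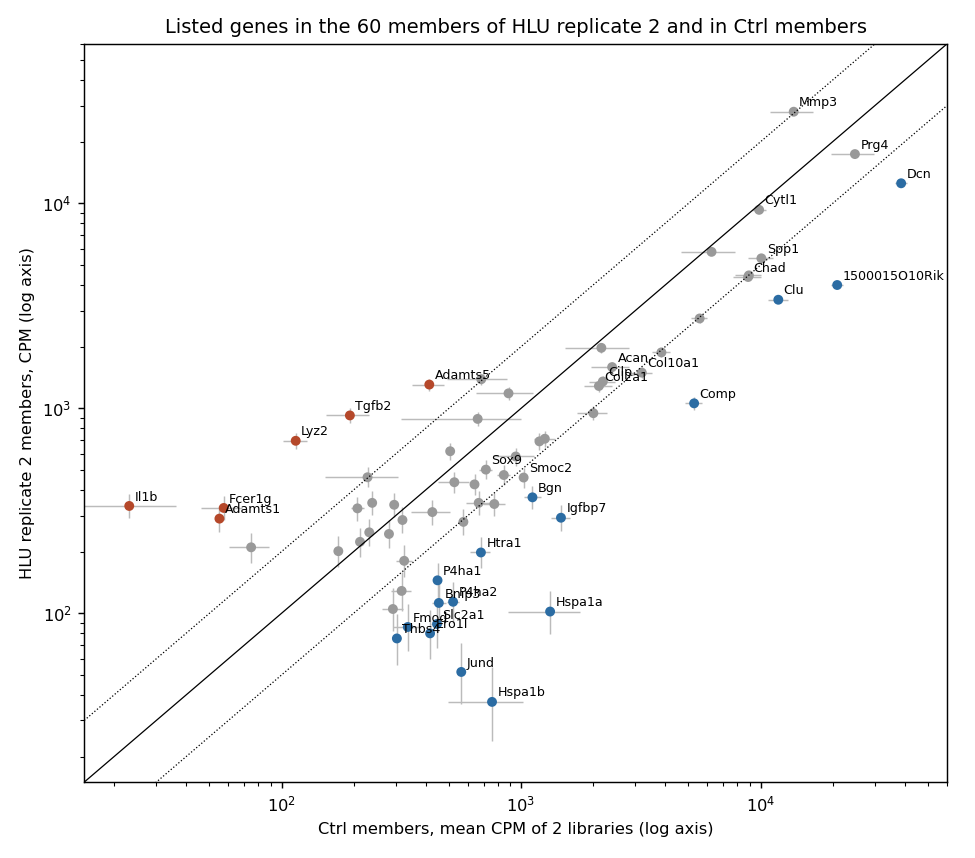
CPM of listed genes in the 60 members of HLU replicate 2 (vertical log axis, bars for 95% Poisson intervals) against the mean of the Ctrl members (horizontal log axis, bars for the 2 libraries), with lines of equality and of 2-fold. The 6 red genes lie over 2-fold above both Ctrl libraries and the 17 blue genes over 2-fold below, whereas Cytl1 sits near the line of equality.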

How the data were processed

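The authors counted UMIs per gene and barcode with Cell Ranger 6.0.0 on mm10 (reference 3.0.0) and deposited raw counts of 31053 genes for 4 libraries of bone cells, without normalization; Seurat 4.1.0 is named in the submitters' processing notes. A total of 30934 genes (99.6%) were found in GENCODE M21 by identifier. Barcodes were filtered and members drawn by the rule given at the start of the report. The members and all gene lists were chosen with earlier results of these data known.

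In the Ctrl libraries, UMIs were summed per library and population (members 18669431 and 14188303 UMIs) and tested with edgeR 4.0.16 (limma 3.58.1, R 4.3.3): TMM factors, filterByExpr, quasi-likelihood test, Benjamini-Hochberg adjustment over all genes tested, threshold 0.05. Populations were drawn in the order members, hyaline, osteoblast-like, stromal. Genes used to draw any population stayed in the library sizes but were not tested. The model held population and library, since populations share a mouse. This pairing was checked: differences between the Ctrl libraries correlated across genes with r = 0.267 (members and hyaline), 0.307 (members and stromal) and 0.403 to 0.603 (rule gene subsets). With the 7 osteoblast-like barcodes, over 94 genes, r was -0.246 (members), -0.106 (stromal) and -0.0609 (hyaline). Libraries are separate mice. With the library in the model, p-values measure how closely differences between populations repeated over 2 of them. The error is pooled over all populations of a fit, the osteoblast-like one included.

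Named genes were the markers and rule genes, examples of each list by highest Ctrl level or largest log2 difference, the 15 highest ratios, and, of the largest rises and falls per comparison (10 against hyaline cells, 5 otherwise), all or some examples. On simulated sums for members against hyaline cells (11717 genes), 72 of 100 genes changed by 1 and 100 of 100 changed by 2 on the log2 scale were recovered with 2 false calls. Apart from the changed genes, all simulated sums shared a mean profile, a fixed dispersion and a common library effect over populations. In the data many more genes differed between populations, so recovery and false calls may differ there. Alternatives were DESeq2 1.42.0, its size factors, no TMM factors, other filters on low counts, no block, doublets left out (Scrublet in scanpy 1.11.5, at 0.8% per 1000 cells), other thresholds of the rule, and each library left out. Other steps used Python 3.11.15, numpy 2.4.6, scipy 1.17.1, pandas 2.3.3 and matplotlib 3.10.9. Promoter windows came from RefSeq (GRCm38.p6); of the 6 markers, 4 had a window (Prg4 and Smoc2 did not match). A gene that met the naming rule is not reported here.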

Additional observations from a re-analysis of the deposited data

Results flagged for a closer look

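In the members of HLU replicate 2, which enter no test, 6 listed genes at 200 CPM or more lay over 2-fold above both Ctrl libraries beyond the counting interval. Of these, 4 (Adamts1, Lyz2, Il1b and Fcer1g) reached that level in HLU replicate 2 alone, the library in which they are high, and stood under 200 CPM in both Ctrl libraries. Their values are given without explanation, from 60 cells of 1 mouse, of which Scrublet marked 12 as possible doublets.

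Of genes that act on matrix, the aggrecanase Adamts5 stood at 1306 CPM (95% Poisson interval 1222 to 1395) against 476 and 352 in the Ctrl members, with at least 5 UMIs in 33 of 60 members, and the protease Adamts1 at 290 CPM (251 to 333) against 55.9 and 54.2. The growth factor Tgfb2 stood at 924 CPM (853 to 999) against 232 and 154. In the neutrophils of HLU replicate 2 these 3 genes were at 6.44, 2.21 and 3.64 CPM, and without the marked doublets the members gave 1472, 297 and 925 CPM.

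The other 3 were genes of myeloid cells. Lysozyme (Lyz2) stood at 695 CPM (633 to 760) against 101 and 128, the cytokine Il1b at 334 CPM (292 to 380) against 10 and 36.2, and the receptor subunit Fcer1g at 327 CPM (285 to 373) against 46.1 and 68.6. In the neutrophils of HLU replicate 2 they were at 5150, 934 and 2829 CPM, and at least 5 UMIs were found in 9, 7 and 7 of the 60 members. The part of other cells in these 3 values was not tested.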

How the results depend on the processing

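With 2 mice a group and 2 to 60 members in an HLU library, levels in HLU rest on 1 mouse, and p-values between populations on 2. The gap in share of filtered barcodes, 21.1 points, ran from 17.0 to 25.1 points when each library was left out, was 33.6 points among barcodes under 3% S100a8 and S100a9, and 18.1 to 22.9 points under the other limits of the rule. Thinned to 1000 UMIs a cell, the mean share of Ctrl members with a UMI fell from 95.9% to 80.8% for Cytl1, 90.7% to 66.3% for Acan, 60.8% to 36.7% for Col10a1, 99.7% to 92.4% for Prg4, 81.4% to 49.8% for Smoc2 and 77.7% to 55.2% for Cilp.

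With at least 10 counts in every sum, which left 185 genes to test, 15 passed against hyaline cells, 31 against osteoblast-like and 9 against stromal cells. With no filter on low counts 637 passed against osteoblast-like cells, 442 between Col10a1-led and Acan-led members and 888 between Cytl1-led and Acan-led ones, where DESeq2 gave 123; the cause was not tested. Without the replicate block the paired subsets gave 16 (Col10a1-led) and 0 (Cytl1-led), and 1842, 1712 and 291 genes passed against hyaline, stromal and osteoblast-like cells in place of 2580, 2406 and 307. Of 93 gene results called and named in the report, 28 lost the call without the block, 4 of the 87 with a value by DESeq2, 2 of the 92 without the marked doublets, 2 (Spp1 and Dcn against hyaline cells) of the 23 that could be tested with at least 10 counts in every sum, and 2 without TMM factors, an alternative chosen after seeing the data, as was leaving out the osteoblast-like population, where 1 of 68 was lost. None changed direction under the alternatives run. Leaving out a Ctrl library left no residual degrees of freedom, so it gave fold changes only.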

Other observations

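The genes given here are on no list and were chosen after their values were seen. In the members of HLU replicate 2 the chemokines Cxcl1 and Cxcl2, which draw neutrophils, were high. Cxcl1 was at 21502 CPM in these members against 2071 and 1761 in the Ctrl members, and at least 5 UMIs of it were found in 46 of 60. In the same library Cxcl1 was at 3568 CPM in hyaline cells, 12146 in stromal cells and 88.7 in neutrophils. Cxcl2 was at 14648 CPM against 259 and 376 in the Ctrl members, with at least 5 UMIs in 35 of 60, and at 1523, 9937 and 1477 CPM in the hyaline cells, stromal cells and neutrophils of HLU replicate 2. Stromal cells of that library thus carried both chemokines as well. Inhba, a subunit of activin, was at 1528 CPM against 257 and 332. Gas1, a surface protein that binds hedgehog ligands, was at 8.87 CPM against 949 and 968, and the cysteine dioxygenase Cdo1 at 132 against 1339 and 1315. With a single library of 60 members these values carry no test.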
